A study of Mus musculus with 12 samples.

Results

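The genes described here are 8 Wnt ligands and 2 target genes of Wnt signaling in the neonatal mouse lung. They were found in the deposited gene counts by symbol, namely *Wnt2*, *Wnt2b*, *Wnt3a*, *Wnt4*, *Wnt5a*, *Wnt7b*, *Wnt9a*, *Wnt11*, *Axin2* and *Lef1*. All 10 were present among 52550 genes, and all 10 were among the 15885 protein-coding genes with enough counts to be tested. The study asked how adrenomedullin (*Adm*), a vasoactive peptide hormone, shapes the response of the newborn lung to lipopolysaccharide (LPS), a bacterial endotoxin used to model bronchopulmonary dysplasia. Each of 12 libraries came from the lung of 1 mouse at postnatal day 5, and RNA was depleted of ribosomal RNA before sequencing. There were 3 mice in each of 4 groups, all on the C57Bl/6J background, with *Adm* alleles that were either both intact (WT, Adm+/+) or 1 of them inactivated in every cell (Adm+/-, bred from a line made in 129/SvEv mice). LPS from *Escherichia coli* O55:B5 at 6 mg/kg, or an equal volume of PBS, was injected into the peritoneum in 3 daily doses, and the lung was collected 6 h after the last dose. Replicates carry the numbers of their libraries, which are 3, 4 and 5 for the PBS group and 9, 10 and 11 for the LPS group of WT mice, and 6, 7 and 8 for the PBS group and 1, 2 and 12 for the LPS group of Adm+/- mice. Values of a group are listed in this order.

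Wnt proteins are lipid-modified secreted ligands that bind Frizzled receptors together with co-receptors. In the canonical branch, binding stops the destruction of beta-catenin, which then enters the nucleus and acts with TCF/LEF transcription factors on target genes such as *Axin2* and *Lef1*. In the non-canonical branches, to which *Wnt5a* and *Wnt11* are usually assigned, ligands act through Ror and Ryk receptors or the planar cell polarity proteins on cell shape and movement. In the lung, *Wnt2* and *Wnt2b* of the mesenchyme are needed for the foregut to form the lung bud, *Wnt5a* shapes the distal airspaces, and *Wnt7b* is a signal of the airway epithelium.

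The members lie on 7 mouse chromosomes (mm10, Gencode M21). *Wnt2* (ENSMUSG00000010797) lies on chromosome 6 from 17988940 to 18030585, *Wnt5a* (ENSMUSG00000021994) on chromosome 14 from 28504750 to 28527448 and *Wnt11* (ENSMUSG00000015957) on chromosome 7 from 98835112 to 98855195. *Wnt2b* (ENSMUSG00000027840) lies on chromosome 3 from 104945272 to 104961921, *Wnt4* (ENSMUSG00000036856) on chromosome 4 from 137277489 to 137299726 and *Wnt7b* (ENSMUSG00000022382) on chromosome 15 from 85535437 to 85582473. *Wnt3a* (ENSMUSG00000009900, 59248033 to 59290752) and *Wnt9a* (ENSMUSG00000000126, 59306928 to 59333552) are neighbors on chromosome 11, which also carries *Axin2* (ENSMUSG00000000142, 108920349 to 108950783). *Lef1* (ENSMUSG00000027985) lies on chromosome 3 from 131110471 to 131224356. The ligands share little exact sequence, and the longest run found in the transcripts of any pair of the 8 ligands was 24 bases, between *Wnt2* and *Wnt2b*.

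Start regions of 4 members are printed because *Wnt2* and *Wnt11* were the members with the steepest fall under LPS, and because *Axin2* and *Lef1* stand for the response of the pathway to its ligands. The sequences come from windows around RefSeq starts on GRCm38.p6, and the set of windows used here held 8 of the 10 members. Each is the part of the window before the transcription start that holds no exon, read 5′ to 3′ on the strand of the gene, at chr6:18030586-18030695 (minus strand) for *Wnt2*, chr7:98834862-98835111 (plus) for *Wnt11*, chr11:108920099-108920348 (plus) for *Axin2* and chr3:131156044-131156293 (plus) for a start site inside *Lef1*. Capitals mark matches to the TCF/LEF letters CTTTGA or CTTTGT on either strand.
Wnt2: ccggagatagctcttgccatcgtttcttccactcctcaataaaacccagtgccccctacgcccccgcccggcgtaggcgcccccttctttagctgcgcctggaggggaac
Wnt11: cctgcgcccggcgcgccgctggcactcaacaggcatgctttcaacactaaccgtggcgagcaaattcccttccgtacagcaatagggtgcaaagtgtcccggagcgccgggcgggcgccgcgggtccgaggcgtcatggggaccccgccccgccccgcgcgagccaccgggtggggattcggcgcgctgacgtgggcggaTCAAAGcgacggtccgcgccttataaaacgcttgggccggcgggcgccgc
Axin2: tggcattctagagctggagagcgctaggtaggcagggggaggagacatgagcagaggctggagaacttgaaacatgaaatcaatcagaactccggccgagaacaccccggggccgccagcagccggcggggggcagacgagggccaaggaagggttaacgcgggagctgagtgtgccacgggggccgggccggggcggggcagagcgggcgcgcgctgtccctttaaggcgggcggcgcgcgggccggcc
Lef1, internal start: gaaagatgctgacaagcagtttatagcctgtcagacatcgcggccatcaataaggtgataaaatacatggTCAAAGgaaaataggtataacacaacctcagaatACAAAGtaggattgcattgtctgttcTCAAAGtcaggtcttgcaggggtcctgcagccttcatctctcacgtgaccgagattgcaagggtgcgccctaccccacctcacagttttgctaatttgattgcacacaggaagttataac

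The *Wnt11* region held 1 TCF/LEF match, whose first base lies 50 bases before the start site (position −50), and the other *Wnt11* window had none. The internal *Lef1* start had 3, at −180, −146 and −120, whereas the 3 other *Lef1* windows had none. Windows of 300 bases around 32851 starts held at least 1 of the 2 motifs in 31.2% and at least 3 matches in 1.14%. No match was found in the windows of *Wnt2*, *Wnt2b*, *Wnt3a*, *Wnt4*, *Wnt9a* and *Axin2*. The STAT letters TTCNNNGAA (in 8.3% of all windows) and the AP-1 letters TGANTCA (7.8%) had no match in any member window. These are matches of letters in short windows, and binding was not measured.

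Total counts per library ranged from 22382535 to 38062873 (median 28494877), and the least covered member had 3636 counts over the 12 libraries. The targeted gene *Adm* was low in every library, at 2.87 to 8.15 CPM (counts scaled to library size, normalized by TMM), and the genotypes overlapped in both treatments (Adm+/- against WT, log2 fold change −0.50 in PBS, adjusted p = 0.999 from edgeR, and −0.55 in LPS, adjusted p = 0.48 from edgeR). A lung origin was clear in each library from type I and type II pneumocyte markers, with summed levels of 3323 to 3888 CPM and 14090 to 18890 CPM. Of the libraries, WT PBS replicate 5 and Adm+/- PBS replicate 6 stood apart with 77.8% and 80.1% of counts on protein-coding genes, against 84.3% to 87.6% elsewhere. The 10 lung fibroblast markers summed to 45270 and 29470 CPM there, against 11790 to 17600 CPM in the other 10 libraries, a sum made up mostly of the collagen genes *Col1a1*, *Col1a2* and *Col3a1*. Within WT PBS *Col1a1* ran from 5970 to 18400 CPM. In WT LPS, 12 skeletal muscle genes summed to 1840, 1846 and 637.9 CPM in replicates 9, 10 and 11, against 8.59 to 35.98 CPM in the other 9 libraries, and 12 squamous epithelium genes summed to 3027, 31.73 and 1545 CPM, against 5.643 to 48.51 CPM. In whole tissue, fewer cells of a type and less RNA per cell cannot be told apart, which holds for every level given here.

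To compare genes with each other, CPM were divided by exonic length in kb. That length merges the exons of all annotated transcripts of a gene, and the order of genes depends on it. Before this scaling, for example, *Wnt5a* was above *Axin2* in Adm+/- LPS (means of 100.29 and 78.85 CPM). In PBS, *Wnt2* (32.17 ± 11.43 CPM per kb in WT, 34.57 ± 6.785 in Adm+/-, SD, n = 3) and *Wnt5a* (29.47 ± 1.606 and 29.97 ± 2.79) were the most abundant members in both genotypes, and their ranges overlapped. *Axin2* followed at 18.1 ± 3.617 CPM per kb in WT and 18.32 ± 1.606 in Adm+/-, and *Wnt11*, whose range overlapped that of *Axin2*, at 15.77 ± 6.68 and 15.94 ± 3.362. *Wnt3a*, *Wnt9a*, *Wnt7b*, *Wnt4* and *Wnt2b* came next in that order, between 8.77 and 2.333 CPM per kb on average, and *Lef1* was lowest at 1.434 ± 0.189 and 1.65 ± 0.2131. Under LPS, *Axin2* came first in both genotypes, with 16.49 ± 1.991 CPM per kb in WT and 14.32 ± 1.073 in Adm+/-. In WT LPS its range overlapped that of *Wnt5a* (15.21 ± 4.701). In Adm+/- LPS the ranges of *Axin2* and *Wnt5a* (12.82 ± 0.5473) all but touched, with 13.23 as the lowest *Axin2* and 13.22 as the highest *Wnt5a* value. *Wnt11* dropped behind *Wnt3a* and *Wnt9a* in both genotypes, to 5.149 ± 1.472 and 4.279 ± 0.4565 CPM per kb, although its range still overlapped that of *Wnt9a*.

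*Wnt2*, *Wnt11* and *Wnt5a* were lower in LPS than in PBS lungs in both genotypes. *Wnt2* and *Wnt11* were at 0.269 to 0.341 of their PBS levels, and *Wnt5a* at 0.516 in WT and 0.428 in Adm+/-. In WT, LPS and the skeletal muscle signal cannot be told apart, as given below. *Wnt3a* and *Wnt7b* passed the threshold below as lower in Adm+/- only, with log2 fold changes of −0.40 and −0.27 in WT. *Wnt2b* rose slightly in both genotypes (0.51 in WT, 0.44 in Adm+/-) and passed the threshold in WT only. A difference between genotypes was not called for any of these genes. A gene was called when its Benjamini-Hochberg adjusted p over all tested genes was below 0.05 and its log2 fold change was beyond 0.5 in either direction. By this rule 4 of 10 members were called in WT (1 higher, 3 lower), where 17.6% of all tested genes were called (10.5% higher, 7.09% lower). In Adm+/- 5 of 10 were called, all lower, where 25.0% of all tested genes were called (12.8% higher, 12.2% lower). The LPS and PBS libraries did not overlap for 4 members in WT (36.2% of all tested genes) and for 8 in Adm+/- (53.7%), all but *Wnt4* and *Lef1*. The median log2 fold change of the 10 members was −0.317 in WT and −0.515 in Adm+/-, against 0.00909 and −0.0131 over all tested genes. The 2 comparisons share no library. Members were chosen with earlier results of these data known, so these counts and medians are a description and do not show that the pathway responds more than other genes.

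**Figure D1:**
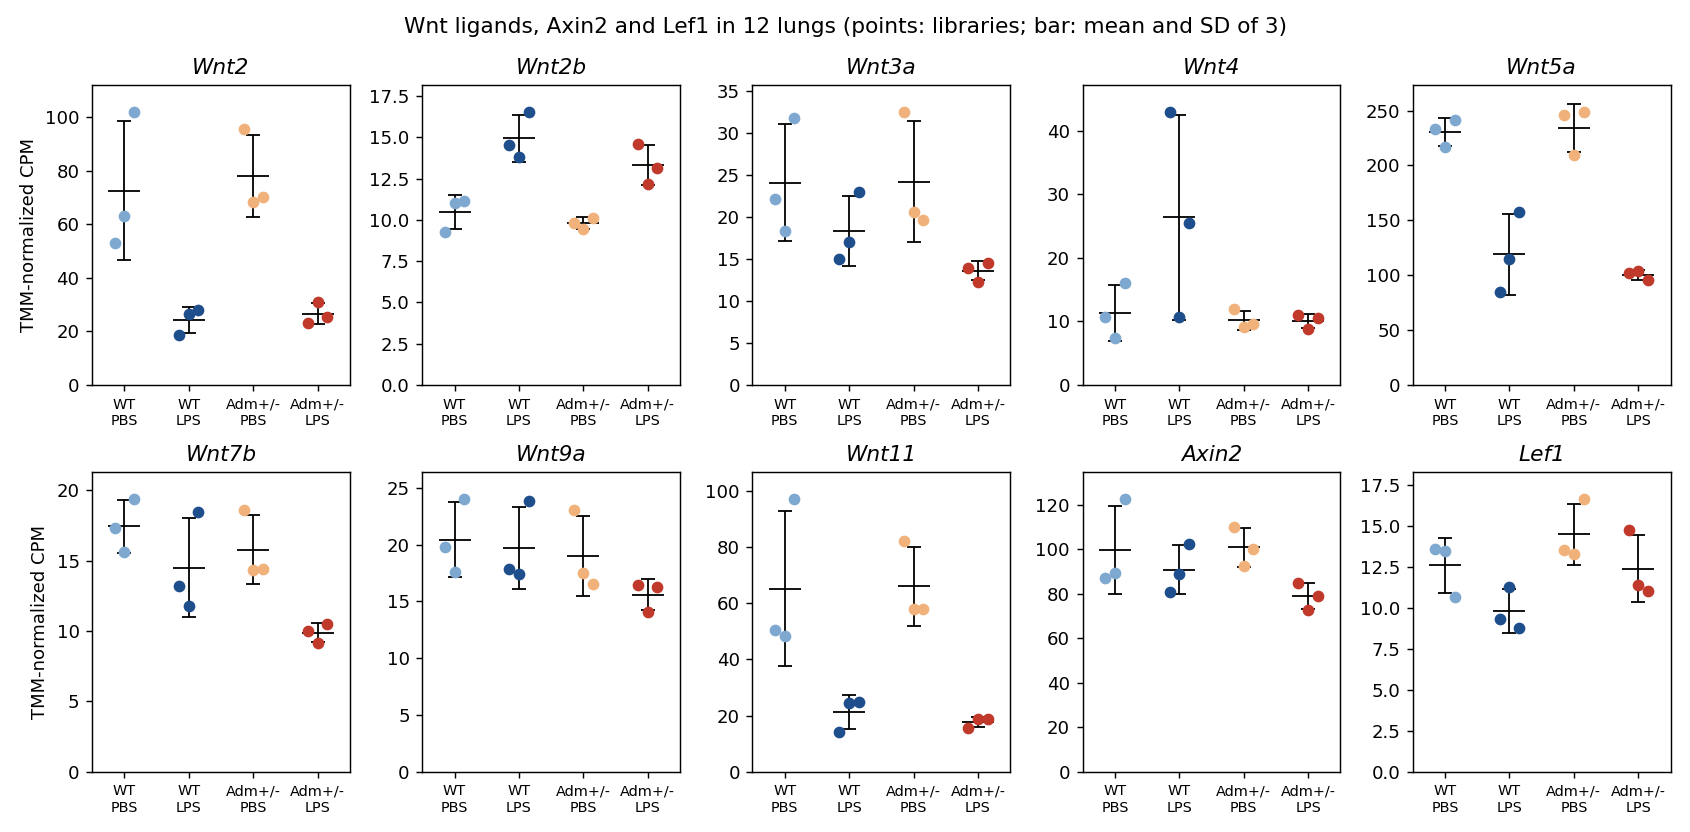
TMM-normalized CPM (vertical axis, from 0) of the 10 members in the 4 groups (horizontal axis). Points are the 3 libraries of a group, and the bar gives their mean and SD. *Wnt2*, *Wnt5a* and *Wnt11* are lower in every LPS library than in any PBS library of the same genotype, whereas *Wnt4* stands out in WT LPS through 2 of 3 libraries.

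*Wnt2*, a mesenchymal ligand that acts together with *Wnt2b* in specifying the lung, was measured at 52.97, 62.90 and 101.74 CPM in WT PBS and at 18.71, 26.32 and 27.80 CPM in WT LPS. The Adm+/- libraries had 95.59, 68.08 and 70.21 CPM under PBS and 23.22, 30.96 and 25.51 CPM in LPS. Every LPS library was below every PBS library, and the highest PBS value of each genotype came from the library that stood apart (WT PBS replicate 5, Adm+/- PBS replicate 6). Its log2 fold change in WT was −1.58 ± 0.248 (standard error, edgeR adjusted p = 0.00159), and in Adm+/- it was −1.55 ± 0.247 (edgeR adjusted p = 0.000862). Without WT PBS replicate 5 the WT value was −1.26, and without Adm+/- PBS replicate 6 the Adm+/- value was −1.39, with both calls kept.

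*Wnt11*, a mainly non-canonical ligand, was at 50.37, 48.19 and 97.11 CPM in WT PBS and at 14.27, 24.66 and 24.97 CPM in WT LPS. Adm+/- lungs had 82.01, 58.08 and 57.77 CPM in PBS and 15.52, 18.77 and 18.81 CPM in LPS. The groups were again fully separate within each genotype, with the same high PBS libraries as for *Wnt2*. Its log2 fold change was −1.61 ± 0.291 in WT (standard error, edgeR adjusted p = 0.00335) and −1.90 ± 0.294 in Adm+/- (edgeR adjusted p = 0.000722). Leaving out WT PBS replicate 5 gave −1.22 in WT, still past the threshold.

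*Wnt5a*, the best-studied non-canonical ligand, was at 233.00, 216.94 and 241.72 CPM in WT PBS and at 84.53, 114.69 and 157.70 CPM in WT LPS. Levels in Adm+/- were 245.57, 209.31 and 248.49 CPM in PBS and 102.02, 103.44 and 95.42 CPM in LPS. The PBS libraries of both genotypes were close together, including the pair that stood apart, while WT LPS spread widely with replicate 9 lowest and replicate 11 highest. The log2 fold change of *Wnt5a* was −0.95 ± 0.179 in WT (standard error, edgeR adjusted p = 0.00413) and −1.23 ± 0.18 in Adm+/- (edgeR adjusted p = 0.000527). With the skeletal muscle list as a covariate the WT value turned to 0.143 (adjusted p = 0.957 from edgeR). Gm2670, an antisense gene that shares 358 exonic bases with *Wnt5a*, moved in parallel (log2 fold change −0.961 and −1.21, adjusted p = 0.0237 and 0.00451 from edgeR), but at 2304 against 48832 counts over the 12 libraries. The strand option of the counting is not named, so shared reads cannot be assigned to either gene.

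*Wnt2*, *Wnt11* and *Wnt5a* kept their calls in both genotypes in all 12 fits that each left out 1 library. With WT LPS replicates 9 and 11 both left out, a choice made after seeing the data, 1 member (*Wnt5a*) stayed called in WT. *Wnt2* was then at −1.46 (adjusted p = 0.0618 from edgeR) and *Wnt11* at −1.40 (adjusted p = 0.0976 from edgeR), with a single WT LPS library assumed to vary like the others. With the skeletal muscle list as a covariate, 0 of the 15885 tested genes were called in WT, members included, against 2791 without it. *Wnt2* was then at −1.19 and *Wnt11* at −1.60 in WT (adjusted p = 0.874 for both from edgeR), and *Wnt5a* changed sign. In Adm+/- 3 members (*Wnt2*, *Wnt5a* and *Wnt11*) were called with it. All WT LPS libraries were high in that list, so that in WT the muscle level and LPS cannot be told apart.

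Of the other ligands, *Wnt3a* and *Wnt7b* were called in Adm+/- and not in WT. *Wnt3a*, the standard canonical ligand, was at 22.10, 18.35 and 31.81 CPM in WT PBS and 14.95, 16.97 and 22.94 CPM in WT LPS, which overlap (log2 fold change −0.40, adjusted p = 0.262 from edgeR). In Adm+/- it was at 32.46, 20.54 and 19.64 CPM in PBS and 13.95, 12.32 and 14.54 CPM in LPS. These did not overlap, and the fall was called (−0.83, standard error 0.247, adjusted p = 0.0256 from edgeR), but it lost its call in 4 of the 12 fits without 1 library, with −0.571 and adjusted p = 0.108 from edgeR without Adm+/- PBS replicate 6. The call was also lost without Adm+/- LPS replicate 1, 2 or 12 (adjusted p = 0.0662, 0.0841 and 0.059 from edgeR).

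*Wnt7b*, made by the airway epithelium, was at 17.36, 15.63 and 19.40 CPM in WT PBS and 13.19, 11.81 and 18.48 CPM in WT LPS (log2 fold change −0.27, adjusted p = 0.299 from edgeR). Adm+/- values were 18.62, 14.36 and 14.39 CPM in PBS and 10.02, 9.13 and 10.48 CPM in LPS. The WT groups overlapped, while in Adm+/- every LPS library was below every PBS library. The Adm+/- fall was −0.67 (standard error 0.181, adjusted p = 0.0156 from edgeR), and it missed the threshold without Adm+/- PBS replicate 6 (adjusted p = 0.0629 from edgeR) or Adm+/- LPS replicate 2 (adjusted p = 0.0569 from edgeR). *Wnt7b* shares 324 exonic bases with the antisense gene AU022754, whose log2 fold change in Adm+/- was −0.00892 (adjusted p = 0.987 from edgeR).

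*Wnt9a*, a neighbor of *Wnt3a* on chromosome 11, was the ligand with the smallest response in WT, with 19.77, 17.57 and 24.03 CPM in PBS and 17.84, 17.42 and 23.85 CPM in LPS (log2 fold change −0.05, adjusted p = 0.853 from edgeR). In Adm+/- it was at 23.04, 17.50 and 16.54 CPM in PBS and 16.49, 14.03 and 16.25 CPM in LPS. The Adm+/- groups were separate by a narrow margin, and the log2 fold change of −0.28 did not pass the test (adjusted p = 0.249 from edgeR).

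*Wnt2b*, a close relative of *Wnt2*, went the other way. It was at 9.28, 11.02 and 11.12 CPM in WT PBS and 14.52, 13.81 and 16.53 CPM in WT LPS, and at 9.84, 9.43 and 10.14 CPM in Adm+/- PBS and 14.62, 12.19 and 13.15 CPM in Adm+/- LPS. Every LPS library was above every PBS library in both genotypes. The log2 fold change of 0.51 ± 0.13 in WT (standard error, edgeR adjusted p = 0.0179) was just over the fold limit, and that of 0.44 ± 0.13 in Adm+/- (edgeR adjusted p = 0.0241) just under it. The WT call was lost without WT PBS replicate 3 (0.431) or WT LPS replicate 11 (0.435, adjusted p = 0.0552 from edgeR), and it was made without Adm+/- LPS replicate 2 in Adm+/- (0.502, adjusted p = 0.0305 from edgeR).

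**Figure D2:**
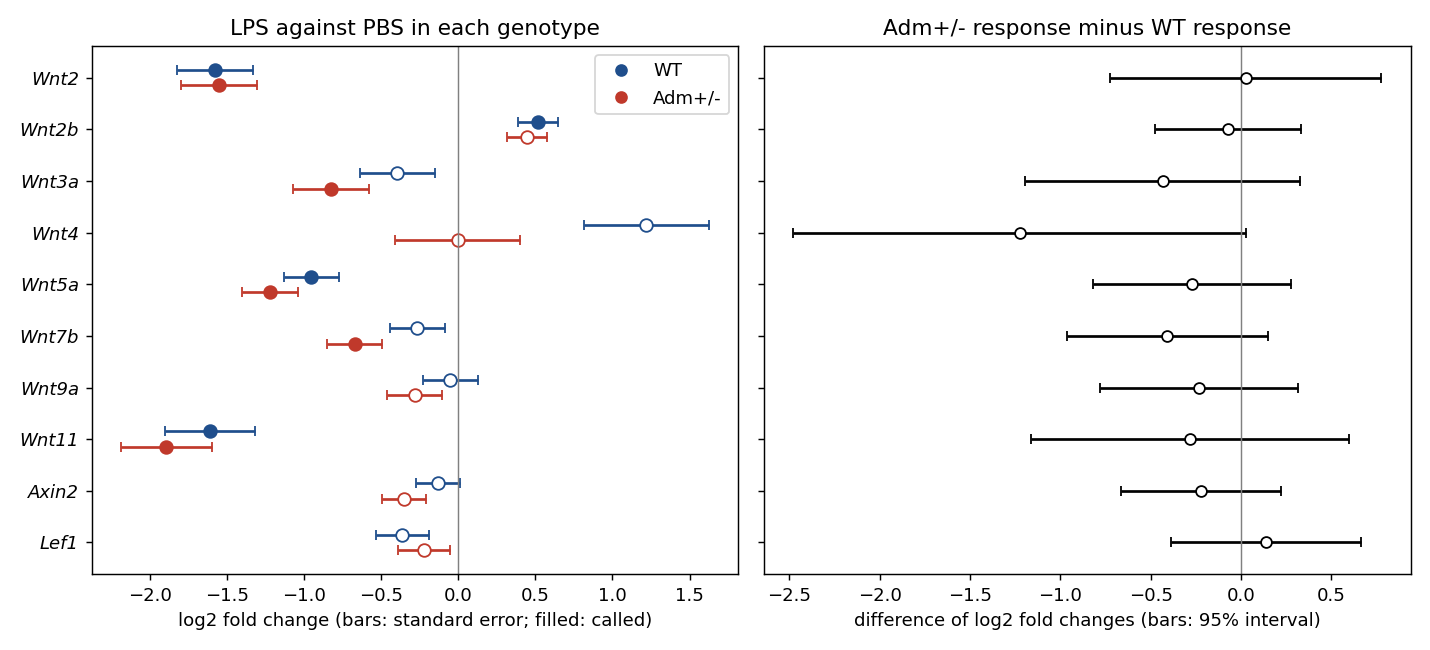
Left, log2 fold changes of LPS against PBS for each member (horizontal axis) in WT (blue) and Adm+/- (red), with standard errors as bars and filled points for called members. Right, the Adm+/- response minus the WT response with 95% intervals, all of which include 0, with the interval of *Wnt4* reaching from −2.48 to 0.029.

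*Wnt4*, known for its part in kidney and female reproductive tract development, was uneven within WT LPS. It was at 10.64, 7.43 and 16.12 CPM in WT PBS and at 42.93, 10.77 and 25.45 CPM in WT LPS. The Adm+/- libraries had 11.89, 9.06 and 9.62 CPM in PBS and 11.03, 8.88 and 10.48 CPM in LPS. WT LPS replicates 9 and 11 were above all other libraries, and WT LPS replicate 10 lay within the PBS range. In WT the log2 fold change of 1.22 ± 0.406 (standard error, edgeR adjusted p = 0.0523) missed the threshold, and in Adm+/- it was −0.00 (95% interval −0.893 to 0.884, adjusted p = 0.995 from edgeR). In WT the value ranged from 0.668 without replicate 9 (adjusted p = 0.271 from edgeR) to 1.59 without replicate 10 (adjusted p = 0.00528 from edgeR), and without both replicates 9 and 11 it was −0.0769.

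The WT LPS libraries with high *Wnt4* were also those with high squamous epithelium genes. At 42.93 and 25.45 CPM of *Wnt4*, the 12 squamous genes summed to 3027 and 1545 CPM, and at 10.77 CPM of *Wnt4* to 31.73 CPM. The keratin *Krt13*, a marker of stratified squamous epithelium, ranged from 9.52 to 1030 CPM in WT LPS and stayed at or below 13 CPM in every other library, while *Ivl*, a marker of the cornified layer, was between 0.285 and 1.32 CPM throughout. The skeletal muscle genes were high in all WT LPS libraries. They summed to 1846 CPM in replicate 10, with 10.77 CPM of *Wnt4*, and to 1840 and 637.9 CPM in replicates 9 and 11. With the skeletal muscle list as a covariate the WT log2 fold change of *Wnt4* was −0.00489, in a fit that called 0 genes in WT. All WT LPS libraries were high in that list, so muscle and LPS cannot be told apart there. The part of squamous tissue in the *Wnt4* values was not tested.

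**Figure D3:**
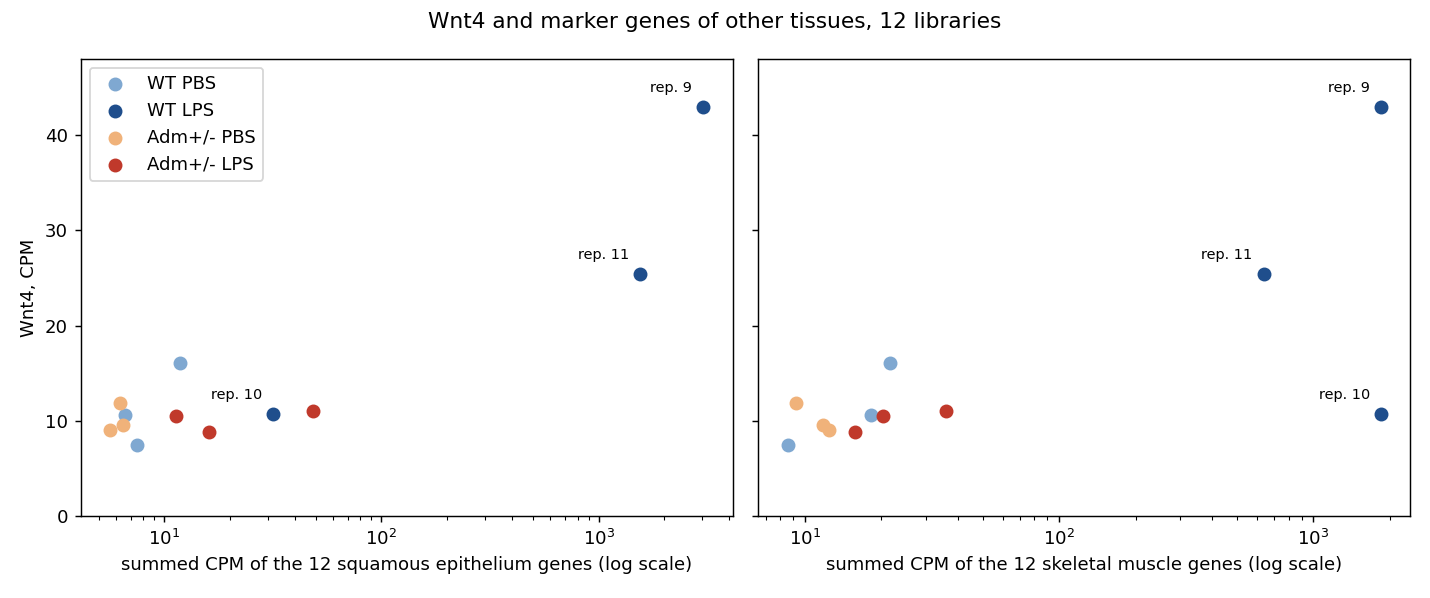
*Wnt4* (vertical axis, CPM) against the summed CPM of 12 squamous epithelium genes (left) and 12 skeletal muscle genes (right), both on a log scale, with 1 point per library. All WT LPS libraries are high in muscle genes, and replicates 9 and 11 are also high in *Wnt4* and in squamous genes.

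*Axin2*, a direct beta-catenin target that feeds back on the pathway as a scaffold of the destruction complex, was at 87.14, 89.20 and 122.62 CPM in WT PBS and 80.87, 88.91 and 102.55 CPM in WT LPS. Adm+/- levels were 110.16, 92.54 and 99.95 CPM in PBS and 84.67, 72.86 and 79.03 CPM in LPS. The WT groups overlapped, with the highest value in WT PBS replicate 5, and the Adm+/- groups did not. The log2 fold change was −0.13 in WT (95% interval −0.448 to 0.18, adjusted p = 0.522 from edgeR) and −0.36 in Adm+/- (95% interval −0.669 to −0.0411, adjusted p = 0.0814 from edgeR). Neither was called, and the WT interval excludes a fall as large as that of *Wnt2* or *Wnt11*.

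*Lef1*, a TCF/LEF factor that is both an effector and a target of the pathway, was at 13.63, 13.49 and 10.69 CPM in WT PBS and 9.34, 11.31 and 8.76 CPM in WT LPS. Adm+/- libraries had 13.57, 13.28 and 16.66 CPM in PBS and 14.77, 11.40 and 11.05 CPM in LPS. The groups overlapped in both genotypes, and the log2 fold changes were −0.37 (95% interval −0.738 to 0.00818, adjusted p = 0.144 from edgeR) and −0.23 (95% interval −0.595 to 0.144, adjusted p = 0.341 from edgeR). *Lef1* is also expressed in T lineage cells, whose 12 markers summed to 15.61 to 22.8 CPM in PBS and 11.69 to 14.06 CPM in LPS libraries. The genes of that list did not move together. *Cd3d* was lower in LPS (2.09 to 4 CPM in PBS and 1.08 to 1.71 CPM in LPS over both genotypes), while *Cd3e*, *Cd3g* and *Cd8a* overlapped in both genotypes. The part of T lineage cells in the *Lef1* values was not tested. Of its exonic bases, 13.75% are shared with the antisense gene Gm43352, which had 250 counts over the 12 libraries against 3644 for *Lef1*.

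Summed levels of cell type markers also differed between treatments. Neutrophil markers, 10 in number, summed to 32.6 to 172 CPM in PBS and to 1530 to 2881 CPM in LPS, and monocyte and macrophage markers to 207.6 to 257.8 CPM and to 394.6 to 666.8 CPM. Endothelial markers summed to 3198 to 3957 CPM in PBS and 2734 to 3291 CPM in LPS, and smooth muscle and pericyte markers to 2165 to 2851 CPM and 1676 to 2302 CPM. The endothelial genes went both ways. *Kdr* was at 545 to 636 CPM in PBS and 247 to 418 CPM in LPS over both genotypes, while *Gpihbp1* was at 29.4 to 46.7 CPM in PBS and 47.9 to 71.8 CPM in LPS. *Pecam1* was at 431 to 469 CPM and 548 to 650 CPM in Adm+/-, and its WT ranges overlapped (398 to 492 CPM and 441 to 569 CPM). The lung fibroblast markers summed to 16260 to 45270 CPM in PBS and 11790 to 16290 CPM in LPS, mostly from the 3 collagen genes. The other 7 genes of that list went both ways. In WT the LPS libraries lay above the PBS libraries for *Dcn* (57.3 to 92.5 CPM against 17.5 to 34.2 CPM) and *Lum* (19.2 to 29.3 CPM against 2.57 to 9.01 CPM), below them for *Npnt* (694 to 731 CPM against 874 to 894 CPM) and *Limch1* (779 to 936 CPM against 965 to 1000 CPM), and overlapped for *Pdgfra*, *Tcf21* and *Fgf10*. In Adm+/- they lay above for *Pdgfra* (323 to 379 CPM against 231 to 276 CPM), below for *Fgf10* (12.5 to 15.8 CPM against 36 to 44.7 CPM), *Tcf21* (162 to 198 CPM against 242 to 293 CPM) and *Limch1* (705 to 833 CPM against 902 to 983 CPM), and overlapped for *Dcn*, *Lum* and *Npnt*. The part of these shifts in the member values was not tested.

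The make-up of the ligand RNA is given here as a description. Over all 19 mouse Wnt genes, the summed level was 115.2 ± 28 CPM per kb in WT PBS and 67.6 ± 11.2 in WT LPS, and 115.8 ± 18.8 in Adm+/- PBS and 53.46 ± 1.04 in Adm+/- LPS (SD, n = 3). The LPS and PBS ranges did not overlap in either genotype (59.99 to 80.4 against 98.42 to 147.5 in WT, and 52.5 to 54.57 against 102.5 to 137.3 in Adm+/-). An exact permutation test of 3 against 3 libraries cannot give a p below 0.1, so no test is given for the sum or the shares. *Wnt2* made up 27.51% ± 3.58 of this sum in WT PBS and 15.96% ± 2.5 in WT LPS, and 29.75% ± 1.01 and 22% ± 2.85 in Adm+/-. The share of *Wnt11* went from 13.33% ± 2.25 to 7.603% ± 1.9 in WT and from 13.7% ± 0.734 to 7.996% ± 0.744 in Adm+/-. *Wnt2b*, the member called higher in WT, went from 2.226% ± 0.435 to 5.306% ± 0.435 and from 2.046% ± 0.296 to 5.939% ± 0.659, at a fold of 1.43 and 1.36 in its own level. A share also grows when the sum falls, as for *Wnt4* in Adm+/- (2.101% to 4.525% at a fold of 0.997) and *Wnt9a* in WT (5.406% to 8.745% at a fold of 0.964). *Wnt5a* made up 26.34% ± 4.75 and 22.19% ± 3.71 in WT, and 26.16% ± 3.32 and 23.98% ± 1.01 in Adm+/-, so that its share overlapped between treatments while its level did not.

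**Figure D4:**
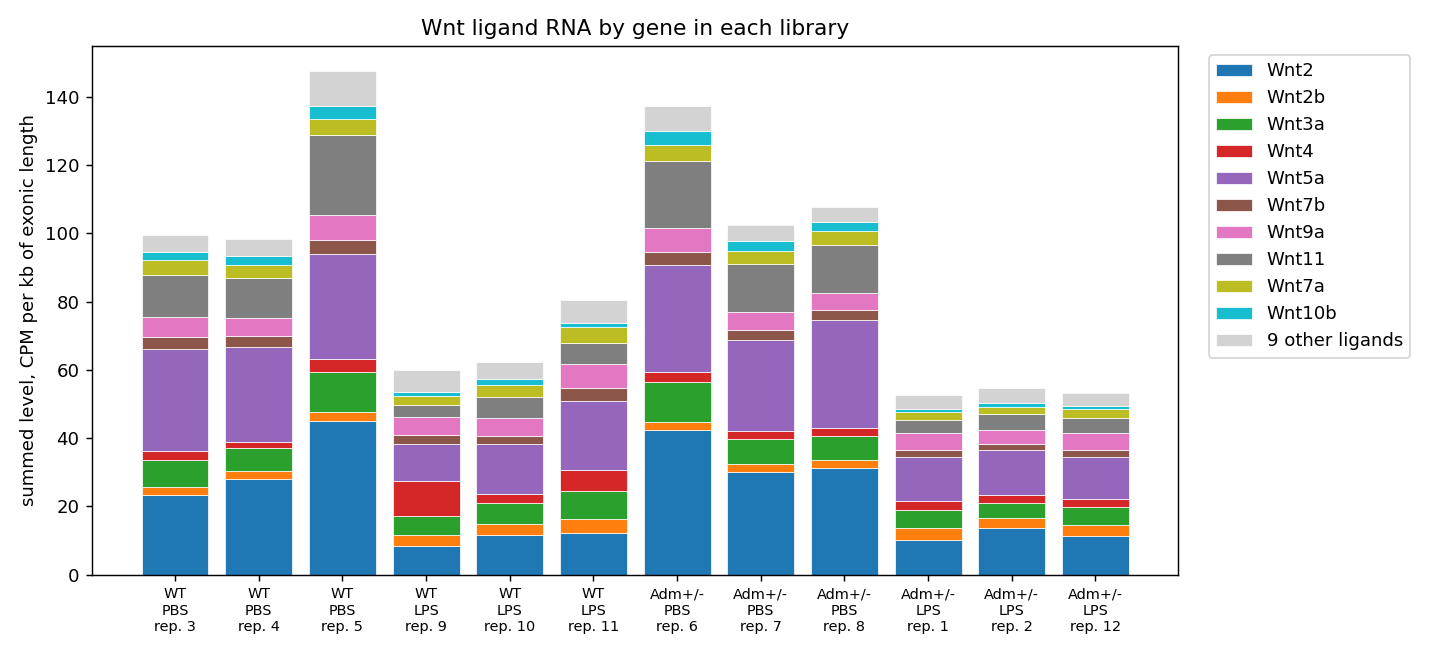
Summed level of all 19 Wnt genes in each library (vertical axis, CPM per kb of exonic length), stacked by gene, with the 9 least abundant ligands in grey. The 6 LPS libraries reach 52.5 to 80.4 and the 6 PBS libraries 98.42 to 147.5, and *Wnt2*, *Wnt5a* and *Wnt11* account for most of the gap.

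No genotype difference in the LPS response was called for any member. The Adm+/- response minus the WT response ranged from −1.22 for *Wnt4* (95% interval −2.48 to 0.029, adjusted p = 0.651 from edgeR) to 0.14 for *Lef1* (95% interval −0.385 to 0.664). All 10 intervals included 0, and 0 members had an unadjusted p below 0.05. DESeq2 and limma-voom also called 0, and edgeR called 0.145% of all tested genes. For *Wnt3a* and *Wnt7b*, which were called in Adm+/- only, the differences were −0.43 (95% interval −1.19 to 0.328, adjusted p = 0.917 from edgeR) and −0.41 (95% interval −0.963 to 0.15, adjusted p = 0.822 from edgeR), so a difference between genotypes was not shown. For *Wnt2* the difference was 0.03, with an interval of −0.724 to 0.776, which leaves room for sizeable differences in either direction.

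Without LPS, no member was called between Adm+/- and WT lungs by edgeR, with 0 at an unadjusted p below 0.05 and every adjusted p at 0.999. DESeq2 and limma-voom called 0 members as well. Of all tested genes edgeR called 0%, with 344 at an unadjusted p below 0.05. The log2 differences ran from −0.16 for *Wnt4* (95% interval −1.05 to 0.733) to 0.20 for *Lef1* (95% interval −0.171 to 0.572). Under LPS 0 members were called, against 2.05% of all tested genes, while 2 of 10 members and 2275 of the 15885 tested genes had an unadjusted p below 0.05. The members were *Wnt4* (−1.38, adjusted p = 0.11 from edgeR), whose WT values rest on replicates 9 and 11, and *Wnt7b* (−0.55, adjusted p = 0.154 from edgeR). *Wnt3a*, *Wnt7b* and *Wnt9a* were lower in all 3 Adm+/- LPS libraries than in any WT LPS library, a separation that 24.6% of all tested genes showed. DESeq2 called 1 member here, *Wnt4* (adjusted p = 0.0161), and 803 of all genes, against 325 by edgeR.

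The rest of the pathway was read from 8 lists with 109 genes, of which 107 were found by symbol and 99 were tested. In WT, 33 of 99 were called under LPS (13 higher, 20 lower), and in Adm+/- 40 of 99 (9 higher, 31 lower), where 17.6% and 25.0% of all tested genes were called. Median log2 fold changes were −0.215 and −0.303, against 0.00909 and −0.0131 over all tested genes. These shares are the background for the counts of the single lists as well. The lists, too, were chosen with earlier results of these data known, so all these counts and medians are a description. The WT count fell to 17 without WT LPS replicate 9, to 8 without WT LPS replicates 9 and 11 and to 0 with the muscle covariate, where the count over all tested genes went from 2791 to 1443, 759 and 0. The Adm+/- count was 29 to 43 when 1 library was left out. Among the other ligands 3 of 7 tested genes were called in WT (2 higher, 1 lower) and 2 of 7 in Adm+/- (both lower). *Wnt10b*, a canonical ligand, was lower in both (−1.20 in WT, adjusted p = 0.00705, and −1.69 in Adm+/-, adjusted p = 0.00058, both from edgeR), and *Wnt7a*, another epithelial ligand, was lower in Adm+/- (−0.81, adjusted p = 0.011 from edgeR). *Wnt1*, *Wnt3*, *Wnt8a* and *Wnt8b* had at most 13 counts in any library and were not tested.

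**Figure D5:**
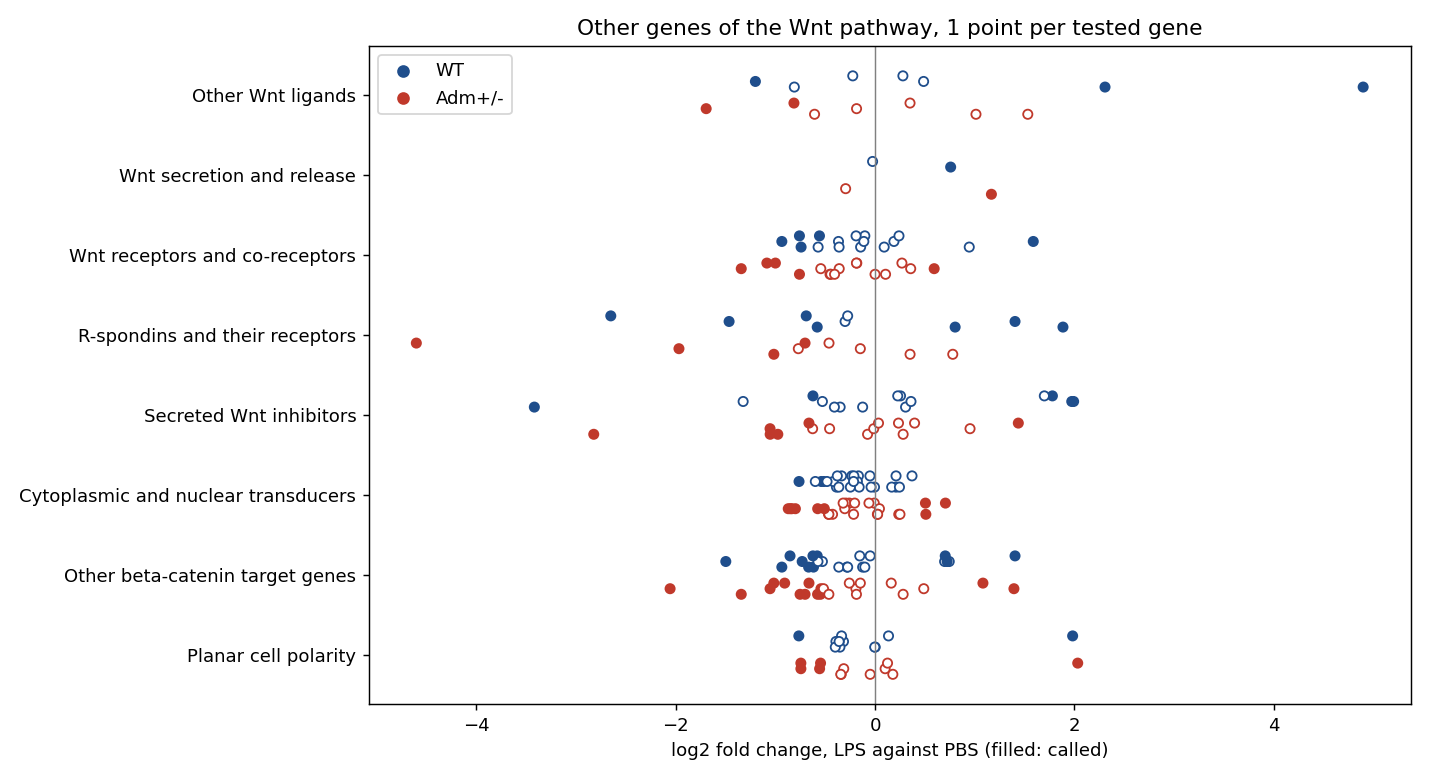
Log2 fold changes of LPS against PBS (horizontal axis) for the 99 tested genes of 8 Wnt pathway lists (rows), in WT (blue) and Adm+/- (red), with 1 point per gene, filled where called. Genes of 2 lists appear in both. *Rspo2* is the leftmost red point, at −4.60, and *Wnt10a* the rightmost blue one, at 4.90.

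Genes that release and receive ligands moved in both directions. *Porcn*, the acyltransferase that attaches the lipid to Wnt proteins, rose in both genotypes, from 13.75, 16.06 and 14.45 CPM to 27.64, 27.70 and 19.55 CPM in WT and from 13.89, 13.11 and 14.71 CPM to 34.33, 25.72 and 33.67 CPM in Adm+/-. The groups were separate, with log2 fold changes of 0.76 (adjusted p = 0.00754 from edgeR) and 1.17 (adjusted p = 0.000374 from edgeR). *Wls*, the carrier that takes the ligand to the cell surface, was not called (−0.02 and −0.29). Of 16 receptors and co-receptors 5 were called in each genotype (1 higher, 4 lower). The Frizzled receptors *Fzd1* (−0.74 and −0.76), *Fzd2* (−0.56 and −0.999) and *Fzd8* (−0.76 and −1.08) fell in both. *Fzd10* rose in WT (1.59, adjusted p = 0.00204 from edgeR) and was not called in Adm+/- (−0.54, adjusted p = 0.144 from edgeR), and the difference between these responses was −2.13 (adjusted p = 0.0614 from edgeR).

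R-spondins strengthen Wnt signals by drawing the ubiquitin ligases Znrf3 and Rnf43 away from Frizzled receptors. *Rspo2* had the steepest fall of the lists in Adm+/-, from 14.89, 17.81 and 20.67 CPM to 0.82, 0.84 and 0.53 CPM (log2 fold change −4.60, adjusted p = 0.000143 from edgeR), and in WT went from 13.94, 7.09 and 16.56 CPM to 0.68, 1.79 and 3.58 CPM (−2.65, adjusted p = 0.00326 from edgeR). The difference between these falls was not called (−1.95, adjusted p = 0.467 from edgeR). *Rspo4* fell in both (−1.46 and −1.97), as did *Rnf43* (−0.58 and −1.01), and *Znrf3* fell in Adm+/- (−0.70) with −0.27 in WT. In all, 7 of 9 genes of this list were called in WT (3 higher, 4 lower) and 4 of 9 in Adm+/- (all lower).

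Of 15 tested secreted inhibitors, 5 were called in WT (3 higher, 2 lower) and 6 in Adm+/- (1 higher, 5 lower). *Sfrp1*, a decoy that binds Wnt ligands, rose from 14.64, 9.66 and 17.61 CPM to 54.95, 34.76 and 53.88 CPM in WT (1.78, adjusted p = 0.000801 from edgeR) and from 8.79, 10.47 and 10.46 CPM to 31.00, 20.70 and 28.93 CPM in Adm+/- (1.44, adjusted p = 0.00123 from edgeR). The relative *Sfrp2* went the other way in Adm+/- (−0.98, adjusted p = 0.00835 from edgeR), and *Wif1*, a further secreted Wnt binder, fell in both (−0.62 and −0.66). *Notum*, which strips the lipid from Wnt proteins and is itself induced by the pathway, fell in Adm+/- (−1.05, adjusted p = 0.00885 from edgeR).

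Cytoplasmic and nuclear transducers were called in 3 of 25 cases in WT (all lower) and 9 of 25 in Adm+/- (3 higher, 6 lower), against 17.6% and 25.0% of all tested genes, so that the WT share was below the background. *Pygo1* (−0.54 and −0.85) and *Ctnnbip1*, an inhibitor of beta-catenin and TCF binding (−0.51 and −0.83), fell in both, while *Tcf7l2* (0.71) and the co-repressor *Tle3* (0.51) rose in Adm+/-. *Ctnnb1*, which encodes beta-catenin, was not called (−0.16 and 0.02). Of 22 other tested target genes, 11 were called in WT (3 higher, 8 lower) and 13 in Adm+/- (2 higher, 11 lower). *Tnfrsf19*, a TNF receptor family member, had the lowest values of those named (−1.50 and −2.06), and *Bmp4* fell in both (−0.67 and −0.75), whereas *Myc* rose (0.72 and 1.39). *Myc* and *Bmp4* also answer to many other signals. Among planar cell polarity genes, 2 of 12 were called in WT (1 higher, 1 lower) and 5 of 12 in Adm+/- (1 higher, 4 lower), and the WT share was near the 17.6% called over all tested genes. *Vangl2* was lower (−0.76 and −0.74) and *Celsr3* higher (1.98 and 2.03) in both, and *Vangl1* (−0.74) and *Invs* (−0.55) lower in Adm+/-.

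For the genotype difference in the LPS response edgeR called 0 of the 99 genes, with 12 at an unadjusted p below 0.05, and DESeq2 called 1. Of all 15885 tested genes 1247 were at an unadjusted p below 0.05, and DESeq2 called 168. For genotype in PBS, edgeR and DESeq2 called 0, with 0 at an unadjusted p below 0.05. Under LPS 3 of 99 were called, all lower in Adm+/- than in WT, where 2.05% of all tested genes were called. They were *Fzd10* (−1.84, adjusted p = 0.00417 from edgeR), *Frzb* (−2.62, adjusted p = 0.0274 from edgeR) and *Wnt10a* (adjusted p = 0.0422 from edgeR), of which *Frzb* and *Wnt10a* were picked out after their values were seen. *Wnt10a* had 14 to 168 counts in WT LPS and 0 to 10 in Adm+/- LPS. It was at 5.18, 0.58 and 3.07 CPM in WT LPS replicates 9, 10 and 11, in the same order as *Wnt4* and the squamous genes. *Fzd10* had that order too (6.59, 4.08 and 6.09 CPM), while *Frzb* (3.30, 3.53 and 1.63 CPM) had the order of the skeletal muscle genes. With the skeletal muscle list as a covariate, 0 of all tested genes were called between genotypes under LPS. The part of squamous tissue in these values was not tested. Without WT LPS replicates 9 and 11, none of the 3 was called.

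Over the 12 libraries, the genes with the pattern most like each member were found by Pearson's r of log2 CPM, which is a description over libraries that share treatment and normalization. The closest to *Wnt2* were *Nck2* (r = 0.9929) and *Myh10* (0.9902), to *Wnt5a* were *Kdr* (0.9932) and *Eml1* (0.9924), and to *Wnt11* were *Chst2* (0.9975) and *Lrrc4b* (0.9928). For *Wnt2b* they were *Inpp5d* (0.974) and *C1qb* (0.9639), and for *Wnt4* *Rasal1* (0.9841) and *Nectin4* (0.9821). For *Wnt3a* they were *Adamts19* (0.9729) and *Pura* (0.9695), for *Wnt7b* 1810010H24Rik (0.9667) and *Fgfr3* (0.9655), and *Tfeb* (0.9491) was among those for *Wnt9a*. *Axin2* was closest to *Nthl1* (0.9835) and *Pdlim2* (0.974). *Lef1* had the loosest matches, *Gata5* (0.8908) and *Cstf1* (0.8881). Within groups, taking deviations from the group means, r was 0.96 for *Wnt2* with *Nck2*, 0.963 for *Wnt5a* with *Kdr* and 0.991 for *Wnt11* with *Chst2*. Over the named pairs it ran from 0.732 for *Wnt2b* with *C1qb* to 0.995 for *Axin2* with *Pdlim2*. The pairs were picked as the closest over these same libraries, so high values within groups are no independent support.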

How the data were processed

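Values are the raw counts per gene that the authors deposited, made by trimming with Trim Galore, alignment with HISAT2 to mm10 and counting with featureCounts on Gencode genes. The Gencode release and strand option are not given in the sources used here. The 12 libraries were mapped to groups by their labels, and none of the 12 pairs of libraries within a group was identical or within the noise of sampling (chi-square over its degrees of freedom, 10.02 to 112.6). Reads carry no molecular identifiers. Standard errors and intervals come from the fit over libraries and include the spread between the 3 mice of a group.

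The 15885 of 21950 protein-coding genes (72.4%) that passed filterByExpr were normalized by TMM and tested in R 4.3.3 with the quasi-likelihood F-test of edgeR 4.0.16, in 1 fit of 12 libraries with 4 group coefficients, 8 residual degrees of freedom per gene and 5 contrasts. P-values were adjusted over all 15885 genes. CPM use TMM library sizes, and log2 CPM a prior count of 2. Exonic length, positions and overlaps come from Gencode M21, which held 99.7% of the gene IDs. The fit was tested on simulated data. Alternatives used RLE size factors, DESeq2 1.42.0, limma-voom (limma 3.58.1), other filters, thresholds, covariates and sets of libraries. Members and lists were chosen with earlier results of these data known. Named genes of the 8 pathway lists are up to 4 per list with the smallest p among those called under LPS in either genotype and a mean of at least 1 CPM, and *Wls*, *Ctnnb1*, *Wnt10a* and *Frzb* were added after their values were seen. For each member the 2 most similar genes are named, except 1 gene that is not reported here. Of the 11 marker lists, cartilage (30.57 to 201 CPM summed) was measured too.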

Additional observations from a re-analysis of the deposited data

How the results depend on the processing

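No paired analysis was possible because the labels name no litter, and the replicate numbers are only running library numbers. The count of members called under LPS in WT (4) was 2 when tested against a log2 fold change of 0.5 with glmTreat, 0 with the skeletal muscle covariate and 1 without WT LPS replicates 9 and 11, and 3 to 5 with 1 library left out. In Adm+/- (5) it was 3 with glmTreat, 3 with the muscle covariate and 3 to 5 with 1 library left out. Pathway counts in WT (33) were 13 with only the 2 groups fitted, 12 with glmTreat, 0 with the muscle covariate, 8 without WT LPS replicates 9 and 11 and 17 to 34 with 1 library left out. In Adm+/- (40) glmTreat gave 16, and 29 to 43 were called with 1 library left out. For the genotype difference in the response (0 pathway genes), DESeq2 called 1, and 0 to 1 were called with 1 library left out. Under LPS, Adm+/- against WT, DESeq2 called 1 member, and 0 to 1 were called with 1 library left out. Pathway genes there (3) were 12 with DESeq2, 1 with glmTreat, 0 with the muscle covariate, 0 without WT LPS replicates 9 and 11 and 1 to 7 with 1 library left out. Over all tested genes the calls moved as well. In WT (2791) they were 1152 with only the 2 groups fitted, 1001 with glmTreat, 0 with the muscle covariate, 759 without WT LPS replicates 9 and 11 and 1443 to 3074 with 1 library left out. In Adm+/- (3968) they were 1695 with glmTreat, 2854 with the muscle covariate and 3033 to 4503 with 1 library left out. Between genotypes under LPS (325) they were 803 with DESeq2, 133 with glmTreat, 0 with the muscle covariate, 107 without WT LPS replicates 9 and 11 and 81 to 573 with 1 library left out. Tests against a limit of 0.5 are stricter by construction and the other causes were not tested.

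Signs turned for values near 0 and for some larger ones. Among the larger ones were *Wnt4* (1.22), *Wnt5a* (−0.95) and *Wnt7b* (−0.27) in WT under LPS, and *Wnt4* (−1.22) for the genotype difference in response. In WT under LPS, the muscle covariate gave *Wnt4* −0.00489, *Wnt5a* 0.143, *Wnt7b* 0.422 and *Wnt9a* 0.161. Leaving out WT LPS replicates 9 and 11 gave *Wnt4* −0.0769, and leaving out WT PBS replicate 5 and Adm+/- PBS replicate 6 gave *Wnt9a* 0.074 and *Axin2* 0.0391. With 1 library left out, *Wnt9a* ranged from −0.214 to 0.074 and *Axin2* from −0.232 to 0.039. In Adm+/-, *Wnt4* was 0.00427 with RLE, 0.00217 with DESeq2, 0.0143 with limma-voom and 0.12 without WT PBS replicate 5 and Adm+/- PBS replicate 6, and −0.0858 to 0.11 with 1 library left out. The genotype difference in response of *Wnt2* was −0.00433 with limma-voom, −0.121 without WT PBS replicate 5 and Adm+/- PBS replicate 6, −0.309 with the muscle covariate and −0.0936 without WT LPS replicates 9 and 11, and −0.288 to 0.21 with 1 library left out. Without WT LPS replicates 9 and 11 it was 0.0417 for *Wnt2b*, 0.0698 for *Wnt4* and −0.0679 for *Lef1*, and with 1 library left out it ranged from −0.143 to 0.0104 for *Wnt2b* and −0.0048 to 0.254 for *Lef1*.

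For Adm+/- against WT in PBS, all annotated genes gave *Wnt3a* −0.017, *Wnt11* −0.0144 and *Axin2* −0.0079, the muscle covariate gave *Wnt3a* −0.00386 and *Wnt5a* −0.0434, and leaving out WT PBS replicate 5 and Adm+/- PBS replicate 6 gave *Wnt3a* −0.00591 and *Wnt4* 0.047. With 1 library left out the ranges were −0.0781 to 0.427 (*Wnt2*), −0.256 to 0.254 (*Wnt3a*), −0.39 to 0.165 (*Wnt4*), −0.019 to 0.0999 (*Wnt5a*), −0.261 to 0.0234 (*Wnt9a*), −0.165 to 0.418 (*Wnt11*) and −0.0697 to 0.194 (*Axin2*). Under LPS *Wnt2* was −0.231 with the muscle covariate and −0.0226 to 0.24 with 1 library left out, and *Wnt5a* −0.436 to 0.0107. Of the calls, *Wnt2b* in WT was also lost with all annotated genes (0.485), with only the 2 groups fitted (adjusted p = 0.0978 from edgeR) and with glmTreat (adjusted p = 0.818 from edgeR), *Wnt5a* in WT with glmTreat (adjusted p = 0.0501 from edgeR), and *Wnt4* in WT was called by DESeq2 (adjusted p = 0.0137) and without WT PBS replicate 5 and Adm+/- PBS replicate 6 together. With 3 mice a group, 95% intervals of the genotype difference in response are wide, and smaller differences were not detectable.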
